A study of Homo sapiens with 24 samples.

Results

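BRCA1, BRCA2, PALB2, BARD1, RAD51C, XRCC2, FANCD2, BLM and RAD54L are genes of homologous recombination, the repair of broken DNA by copying an intact sister. They were taken by symbol from the raw count tables, where each of the 9 symbols matched 1 of 58735 gene entries, and all 9 passed the filter on low counts in every fit. Polyadenylated RNA had been sequenced from 24 libraries of 3 established lines of human triple-negative breast cancer, in 8 groups of 3 libraries. HCC1395 cells received 5 uM tazemetostat (EZH2i), which blocks the gene-silencing enzyme EZH2, 5 uM ipatasertib (AKTi), which blocks the growth-signalling kinase AKT, both (EZH2i+AKTi), or the vehicle DMSO. HCC38 and HCC1937 cells received EZH2i+AKTi or DMSO. The labels name no transgene or edit in any group and describe a treatment timeline only for a different line, so the duration of exposure is not clear. HCC1937 is known as a line that lacks functional BRCA1 protein, so its BRCA1 RNA counts say nothing of working protein. Whether HCC38 and HCC1395 make working BRCA1 protein was not examined, and their RNA counts do not show it either.

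BRCA1 and BARD1 form a ubiquitin ligase that acts at broken DNA ends. PALB2 joins BRCA1 to BRCA2, which acts on single-stranded DNA to start strand exchange. RAD51C and XRCC2 assist this step, and RAD54L is a motor protein that helps pair the strands. BLM is a helicase that takes apart joined DNA molecules, and FANCD2 is the protein switched on by ubiquitin in the Fanconi anaemia pathway of crosslink repair. Many genes of this pathway are transcribed most strongly as cells enter and pass through S phase, and breast tumours that have lost the pathway are known to respond to PARP inhibitors.

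The regions around the starts of 3 genes are shown because BRCA1 shares its start region with a neighbouring gene and differed most between lines, and because XRCC2 and FANCD2 were the members whose windows held an E2F octamer. All 9 members had a promoter window in the RefSeq table (GRCh38.p14), 250 bases before and 50 after the start. For BRCA1 the stretch shown is the 192 bases between its start and that of the divergent gene NBR2, chr17:43125365-43125556, minus strand, with the CCAAT box in capitals. For XRCC2, chr7:152676113-152676291, minus strand, and for FANCD2, chr3:10026287-10026442, plus strand, the capitals mark the octamer.
BRCA1: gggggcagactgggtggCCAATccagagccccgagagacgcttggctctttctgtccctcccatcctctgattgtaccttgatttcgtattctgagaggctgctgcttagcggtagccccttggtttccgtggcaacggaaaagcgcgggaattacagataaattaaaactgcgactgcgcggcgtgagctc
XRCC2: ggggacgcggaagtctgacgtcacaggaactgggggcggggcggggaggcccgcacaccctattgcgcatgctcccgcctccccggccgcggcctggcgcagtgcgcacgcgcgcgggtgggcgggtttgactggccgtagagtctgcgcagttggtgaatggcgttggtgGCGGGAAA
FANCD2: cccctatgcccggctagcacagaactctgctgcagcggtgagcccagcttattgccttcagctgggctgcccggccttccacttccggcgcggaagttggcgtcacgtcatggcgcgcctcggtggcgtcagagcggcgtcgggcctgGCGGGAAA

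The octamers searched, on both strands, were TTTCCCGC, TTTCGCGC, TTTGCCGC and TTTGGCGC, the letters bound by E2F factors. The match read GCGGGAAA in the direction of transcription in both genes, at base 22 after the start of XRCC2 and from 2 bases before the start of FANCD2. An octamer was present in 2 of the 9 member windows and in 3.31% of all 35116 windows of the same length. The CCAAT box (CCAAT, both strands) was present in 4 of 9, in BRCA1, PALB2, BLM and RAD54L, and in 34.6% of all windows. The cell cycle element TTTGAA and the FOXO heptamer GTAAACA were in 0 of 9, against 15.2% and 3.42% of all windows. These are matches of letters, and nothing here measured binding.

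Library totals ran from 33469927 to 51815656 counts. The lowest count of any member was 113, for BRCA1 in HCC1395 under EZH2i+AKTi, and the highest was 4981, for FANCD2 in HCC1937 in DMSO. The mitochondrial share of counts in HCC1395 was 4.49 to 5.19% under EZH2i, 5.34 to 5.72% under AKTi, 6.14 to 6.30% under EZH2i+AKTi and 3.77 to 3.92% in DMSO. In HCC1937 it was 6.72 to 8.54% under EZH2i+AKTi and 4.81 to 6.37% in DMSO. In both lines it moved with treatment without overlap of treated and DMSO libraries, and its part in the results was not tested. The third HCC38 library under EZH2i+AKTi, replicate C, was unlike its partners, at 7.77% mitochondrial counts beside 4.76 and 5.19%, and the members' changes in HCC38 are given with and without it. In HCC1395 the EZH2i+AKTi replicates scattered most. Their pairs differed by a chi-square per degree of freedom of 11.1 to 35.3, against 3.83 to 6.55 in the other HCC1395 groups. Ribosomal protein genes took 7.44, 8.77 and 6.85% of counts in replicates A, B and C of that group. PGR stood at no more than 0.0979 CPM (counts scaled to library size) in any library, and ESR1 reached 21.4 CPM in HCC1937. ERBB2 stood at 179 to 240 CPM in HCC1937, 111 to 163 CPM in HCC38 and 43.7 to 67.2 CPM in HCC1395. The epithelial markers EPCAM (at most 5.62 CPM) and CDH1 (at most 1.02 CPM) were near 0 in HCC1395, where KRT14 stood at 315 to 594 CPM. In the same line KRT8 stood at 29.5 to 134 CPM and KRT18 at 28.7 to 89 CPM, with KRT19, KRT5 and CDH3 at no more than 15 CPM. Immune markers PTPRC, CD3E and CD68 stood at no more than 1.13 CPM, while COL1A1, a fibroblast marker, reached 94.1 CPM in HCC1395 and PECAM1, an endothelial marker, 31.8 CPM in HCC1937. Whether replicates were grown apart is not stated, so the p-values speak only to the scatter among these libraries, part of which may be technical. A lower level in bulk RNA cannot tell fewer expressing cells from less RNA per cell.

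Within a line, levels are CPM scaled by TMM in the fit of that line, and errors of CPM are SD of 3 libraries. Changes are log2 ratios with standard errors, tested two-sided with the quasi-likelihood test of edgeR and called at a Benjamini-Hochberg adjusted p under 0.05 over all genes tested. Whether groups overlap is given as a description only. The share of all genes with groups that do not overlap was not counted.

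In HCC1395 the AKT inhibitor was followed by lower RNA of all 9 members, and the EZH2 inhibitor by lower RNA of BRCA1, BRCA2 and PALB2. Under AKTi, 9 of 9 members fell against DMSO, where 22.6% of all 18074 genes tested were called lower. The members' median log2 change was -1.03, against 0.06 over all genes. Under EZH2i, 3 of 9 fell and none rose, against a background of 14.9% called lower, with a members' median of -0.14 and 0.02 over all genes. Under EZH2i+AKTi, 9 of 9 fell against a background of 27.4%, with a median of -1.27, against 0.07 over all genes. These 3 comparisons share the same DMSO libraries. The members were chosen with earlier results of these data known, so their counts beside the background are a description only. The plot of CPM by library shows the 9 genes in all groups.

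**Figure D1:**
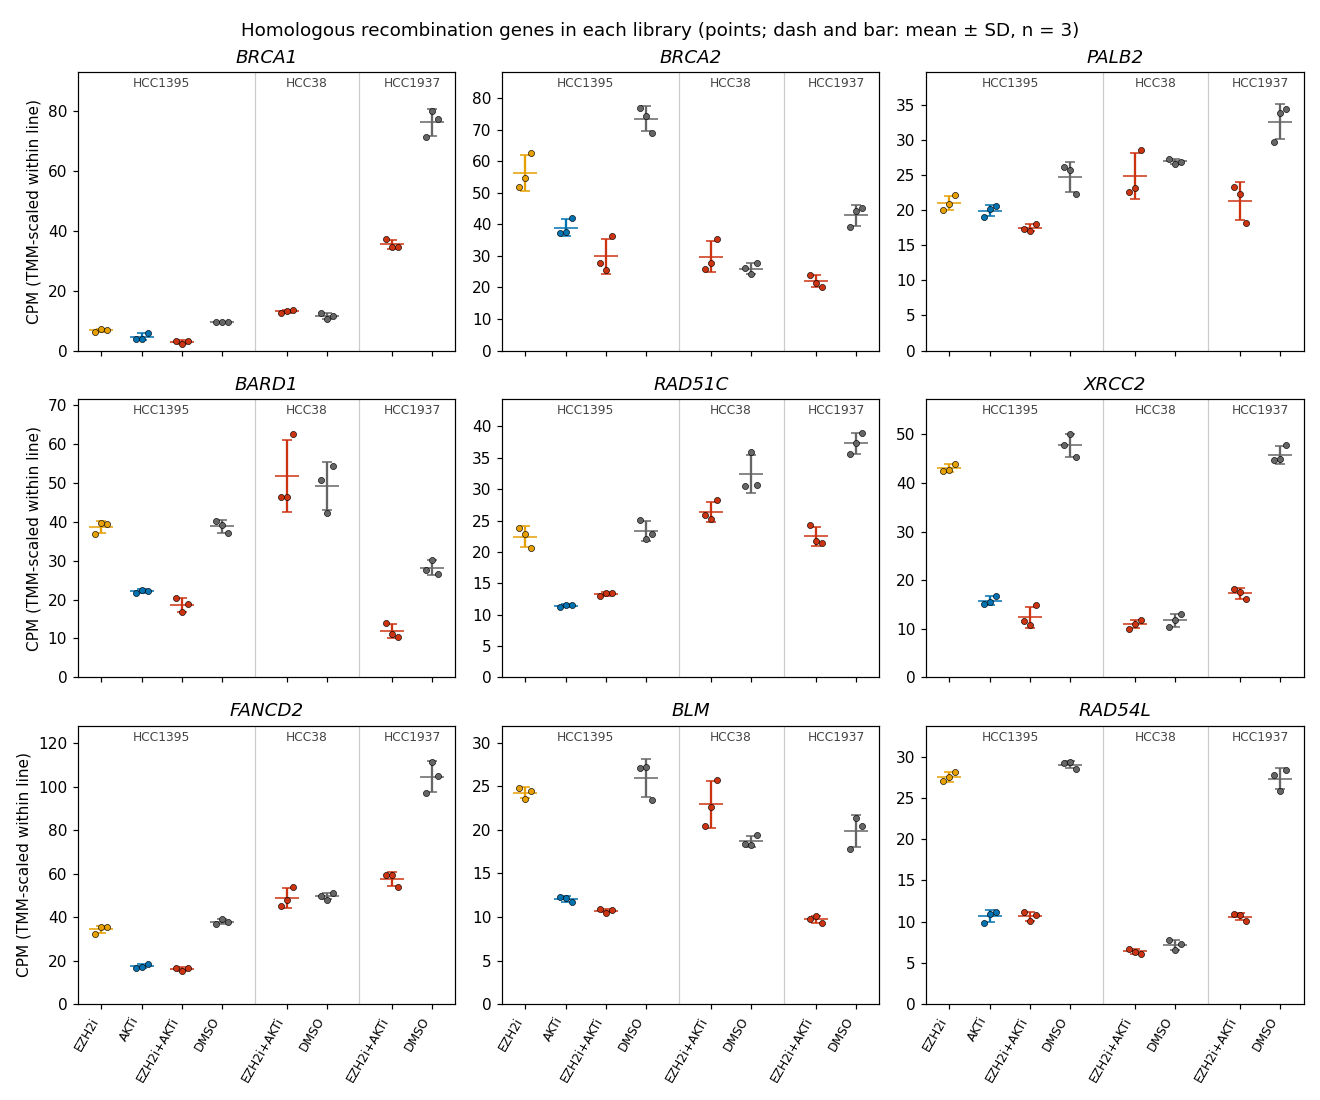
CPM of the 9 genes in each of the 24 libraries (vertical axis, TMM-scaled within each line, from 0), by line and treatment (horizontal axis), with points for libraries and dash and bar for mean and SD of 3. In HCC1395 the AKTi and EZH2i+AKTi libraries of all 9 genes lie below the DMSO libraries, in HCC1937 the EZH2i+AKTi libraries do, and in HCC38 most groups overlap.

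BRCA1, the ubiquitin ligase subunit, had 6.10, 7.16 and 6.91 CPM under EZH2i, 3.91, 3.99 and 6.01 CPM under AKTi, 3.05, 2.25 and 3.33 CPM under EZH2i+AKTi, and 9.45, 9.38 and 9.43 CPM in DMSO. Every treated library lay below every DMSO library, and the EZH2i+AKTi libraries lay below those of either single agent. Its log2 change was -0.48 ± 0.14 under EZH2i (adjusted p = 0.0114), -1.03 ± 0.15 under AKTi (adjusted p = 6.65e-06) and -1.72 ± 0.15 under EZH2i+AKTi (adjusted p = 5.55e-09), where it stood at 0.303 of its DMSO level. Replicate C of AKTi was higher than its partners.

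BARD1, its partner in the ligase, had 36.8, 39.7 and 39.5 CPM under EZH2i, 21.6, 22.6 and 22.2 CPM under AKTi, 20.3, 16.8 and 19.0 CPM under EZH2i+AKTi, and 40.3, 39.1 and 37.1 CPM in DMSO. The EZH2i and DMSO libraries overlapped, and the AKTi and EZH2i+AKTi libraries lay well below both. The change of BARD1 was 0.00 ± 0.07 under EZH2i (95% interval -0.16 to 0.15), -0.81 ± 0.07 under AKTi and -1.05 ± 0.07 under EZH2i+AKTi, with edgeR adjusted p of 0.972, 3.86e-09 and 4.13e-11 in that order. Per kilobase of exon, the ratio of BRCA1 to BARD1 in these cells was 0.115 ± 0.0049 under EZH2i, 0.138 ± 0.035 under AKTi, 0.101 ± 0.014 under EZH2i+AKTi and 0.161 ± 0.0068 in DMSO (SD, n = 3 each). The AKTi ratios were 0.120, 0.117 and 0.179 in replicates A, B and C, with replicate C above the DMSO range of 0.155 to 0.168 and the others below it.

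PALB2, the bridge between BRCA1 and BRCA2, moved least of the 9 under AKTi and under EZH2i+AKTi. It had 20.0, 20.8 and 22.1 CPM under EZH2i, 19.0, 20.2 and 20.5 CPM under AKTi, 17.4, 17.0 and 18.0 CPM under EZH2i+AKTi, and 26.1, 25.8 and 22.3 CPM in DMSO. All treated libraries were below all DMSO libraries, with the highest EZH2i library close to the lowest DMSO one. The log2 change of PALB2 was -0.24 ± 0.07 under EZH2i, -0.31 ± 0.07 under AKTi and -0.50 ± 0.07 under EZH2i+AKTi (edgeR adjusted p = 0.0138, 9.79e-04 and 3.73e-06 in that order). The EZH2i call of PALB2 was lost without DMSO replicate A (adjusted p = 0.0731), without DMSO replicate B (adjusted p = 0.0652) and in a joint fit of all lines (adjusted p = 0.0647).

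BRCA2, which starts strand exchange, had 51.8, 54.6 and 62.7 CPM under EZH2i, 37.2, 37.6 and 42.1 CPM under AKTi, 27.8, 25.6 and 36.2 CPM under EZH2i+AKTi, and 76.9, 74.4 and 69.1 CPM in DMSO. No 2 of the 4 groups overlapped, with DMSO the highest and EZH2i+AKTi the lowest. Its log2 change was -0.38 ± 0.11 under EZH2i (adjusted p = 0.0135), -0.92 ± 0.11 under AKTi (adjusted p = 7.73e-06) and -1.31 ± 0.11 under EZH2i+AKTi (adjusted p = 1.41e-07).

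RAD51C and XRCC2, the helpers of strand exchange, fell under AKTi and were not called under EZH2i. RAD51C had 23.9, 22.8 and 20.6 CPM under EZH2i, 11.2, 11.6 and 11.5 CPM under AKTi, 13.0, 13.4 and 13.5 CPM under EZH2i+AKTi, and 25.0, 22.0 and 22.9 CPM in DMSO. XRCC2 had 42.5, 42.6 and 44.0 CPM under EZH2i, 15.1, 15.5 and 16.8 CPM under AKTi, 11.6, 10.7 and 14.8 CPM under EZH2i+AKTi, and 47.9, 50.0 and 45.3 CPM in DMSO. For both genes each library with the AKT inhibitor was far below each library without it. RAD51C was the 1 member higher under EZH2i+AKTi than under AKTi in every library. The change of XRCC2, the largest of the 9 under AKTi, was -1.60 ± 0.09 under AKTi (adjusted p = 5.17e-12) and -1.96 ± 0.09 under EZH2i+AKTi (adjusted p = 1.4e-13), which left 0.257 of the DMSO level. RAD51C changed by -1.03 ± 0.07 under AKTi (adjusted p = 3.66e-10) and -0.81 ± 0.07 under EZH2i+AKTi (adjusted p = 4.92e-09).

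RAD54L, the strand-pairing motor, had 27.0, 27.5 and 28.1 CPM under EZH2i, 9.89, 11.0 and 11.2 CPM under AKTi, 11.2, 10.1 and 10.8 CPM under EZH2i+AKTi, and 29.3, 29.3 and 28.5 CPM in DMSO. The AKTi and EZH2i+AKTi libraries of RAD54L overlapped, and both were far below the rest. RAD54L changed by -1.44 ± 0.07 under AKTi (adjusted p = 9.03e-13) and by -1.44 ± 0.07 under EZH2i+AKTi (adjusted p = 2.95e-13). Of the exonic bases of RAD54L, 806 (25.1%) overlap LRRC41 on the opposite strand, so without a known strand setting the pair may share reads. LRRC41 changed by 0.17 ± 0.05 under AKTi and by -0.19 ± 0.05 under EZH2i+AKTi (edgeR adjusted p = 0.0147 and 0.00485 in that order).

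FANCD2, of the crosslink pathway, had 32.4, 35.3 and 35.5 CPM under EZH2i, 16.7, 17.2 and 18.5 CPM under AKTi, 16.6, 15.3 and 16.8 CPM under EZH2i+AKTi, and 37.0, 39.4 and 37.6 CPM in DMSO. BLM, the helicase, had 24.8, 23.5 and 24.5 CPM under EZH2i, 12.4, 12.2 and 11.7 CPM under AKTi, 10.9, 10.5 and 10.8 CPM under EZH2i+AKTi, and 27.1, 27.3 and 23.4 CPM in DMSO. Every library with the AKT inhibitor lay below every other library for both genes, and the 2 groups with it overlapped for FANCD2 but not for BLM. FANCD2 changed by -1.12 ± 0.07 under AKTi and -1.23 ± 0.07 under EZH2i+AKTi (edgeR adjusted p = 1.61e-11 and 1.71e-12 in that order). BLM changed by -1.10 ± 0.07 under AKTi and -1.27 ± 0.07 under EZH2i+AKTi (edgeR adjusted p = 7.71e-11 and 4.4e-12 in that order).

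The 6 members not called under EZH2i had log2 changes from -0.15 (XRCC2) to 0.00 (BARD1), with edgeR adjusted p from 0.0881 (FANCD2) to 0.972 (BARD1). The groups of XRCC2, FANCD2 and RAD54L did not overlap DMSO although none was called. When EZH2i and DMSO were fitted without the other HCC1395 groups, XRCC2 (adjusted p = 0.0177) and FANCD2 (adjusted p = 0.0368) were also called lower, which made 5 of 9. Without replicate B of EZH2i+AKTi, a library outside this comparison that enters the shared spread, 5 were called as well.

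**Figure D2:**
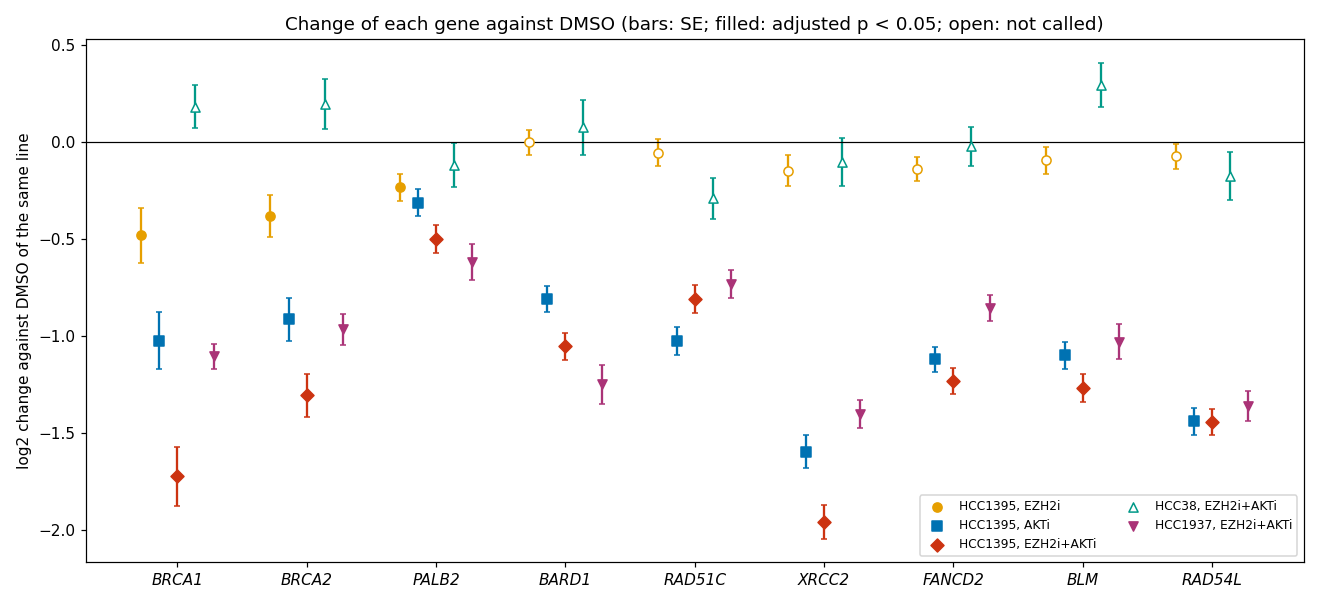
Log2 change against DMSO of the same line (vertical axis) for the 9 genes (horizontal axis) in 5 comparisons, with bars for SE and filled points for adjusted p under 0.05. BRCA1, BRCA2 and PALB2 are the filled EZH2i points in HCC1395, all HCC1937 points are filled and below 0, and all HCC38 points are open.

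The contrast of both inhibitors with each alone asks what the second agent adds. Against EZH2i alone, EZH2i+AKTi was lower for 9 of 9 members, where 25.1% of all genes were called lower. The changes ran from -1.81 ± 0.09 for XRCC2 (adjusted p = 9.69e-13) to -0.27 ± 0.07 for PALB2 (adjusted p = 0.004). No member's groups overlapped, which was not counted over all genes. Against AKTi alone, 5 of 9 were lower, with a background of 18.6%, and 1 of 9, RAD51C, was higher, with a background of 17%. BRCA1 fell by 0.70 on the log2 scale (SE 0.16, adjusted p = 0.00196), BRCA2 by 0.39 (SE 0.11, adjusted p = 0.0142), XRCC2 by 0.36 (SE 0.09, adjusted p = 0.00374), BARD1 by 0.24 (SE 0.07, adjusted p = 0.00988) and PALB2 by 0.19 (SE 0.07, adjusted p = 0.0476). RAD51C rose by 0.22 (SE 0.08, adjusted p = 0.0314). FANCD2, BLM and RAD54L changed by -0.11, -0.17 and 0.00 and were not called.

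The call of BRCA1 against AKTi alone held under every alternative tried, while those of the other 5 did not. Only 3 members were called with these 2 groups fitted alone, in the joint fit, and without AKTi replicate C, EZH2i+AKTi replicate A or EZH2i+AKTi replicate B. No member was called for the interaction, the change under both agents less the sum of the single changes, where 1.58% of all genes were called in either direction. Interaction values ran from -0.24 ± 0.10 for BARD1 to 0.27 ± 0.10 for RAD51C, and these 2 were the members at an unadjusted p under 0.05 in edgeR. The interaction of BRCA1 was -0.22 ± 0.21 (95% interval -0.71 to 0.28), so this design bounds a departure from additivity only widely for BRCA1. DESeq2 called 0 members too, with 1 at an unadjusted p under 0.05. Without replicate C of EZH2i+AKTi, XRCC2 was called at -0.34 (edgeR adjusted p = 0.0282). In that fit the interaction calls over all genes rose as well, from 286 to 1022.

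In HCC1937, 9 of 9 members fell under EZH2i+AKTi against DMSO, where 28.8% of 17692 genes were called lower. The members' median change was -1.03, against 0.03 over all genes. BRCA1 had 37.2, 34.6 and 34.6 CPM under EZH2i+AKTi, against 71.4, 80.0 and 77.5 CPM in DMSO. BARD1 had 13.9, 11.2 and 10.4 CPM, against 27.5, 30.3 and 26.6 CPM in DMSO. The groups of both genes were far apart. Those of all 9 members were separate, a share that was not counted over all genes. Of 6 tested markers of other cell types, 5 rose and 1 fell in the same comparison, with a summed level of 46.3 to 47.3 CPM under EZH2i+AKTi and 38.9 to 41.1 CPM in DMSO. Their part in the changes was not tested. BRCA1 changed by -1.11 ± 0.07 (adjusted p = 2.37e-09) and BARD1 by -1.25 ± 0.10 (adjusted p = 6.15e-08).

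XRCC2 had 18.3, 17.6 and 16.1 CPM under EZH2i+AKTi in HCC1937, against 44.6, 44.9 and 47.9 CPM in DMSO. RAD54L had 11.0, 10.8 and 10.1 CPM under EZH2i+AKTi, against 27.8, 25.9 and 28.3 CPM in DMSO. These were the 2 members that fell furthest in this line, by 1.40 (SE 0.07, adjusted p = 4.54e-10) and 1.36 (SE 0.08, adjusted p = 1.45e-09) on the log2 scale. BRCA2 had 24.0, 21.5 and 20.3 CPM under EZH2i+AKTi, against 39.2, 44.2 and 45.2 CPM in DMSO. PALB2 had 23.3, 22.2 and 18.2 CPM under EZH2i+AKTi, against 29.7, 33.8 and 34.4 CPM in DMSO, and was again the member that moved least. BRCA2 changed by -0.97 ± 0.08 (adjusted p = 8.34e-08) and PALB2 by -0.62 ± 0.09 (adjusted p = 4.25e-05). The remaining 3 changed by -0.73 ± 0.07 (RAD51C), -0.86 ± 0.07 (FANCD2) and -1.03 ± 0.09 (BLM), with edgeR adjusted p no higher than 5.34e-07. The 9 calls in HCC1937 held without each library in turn and under every other alternative tried.

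In HCC38 the same pair of inhibitors left the members near their DMSO levels. None of the 9 was called, where 31.4% of 17100 genes were called in either direction, and the members' median change was -0.02, against -0.01 over all genes. BRCA1 had 12.7, 13.1 and 13.4 CPM under EZH2i+AKTi, against 12.5, 10.6 and 11.5 CPM in DMSO. BRCA2 had 26.0, 27.8 and 35.4 CPM under EZH2i+AKTi, against 26.1, 24.2 and 27.7 CPM in DMSO. XRCC2 had 10.1, 11.0 and 11.7 CPM under EZH2i+AKTi, against 10.3, 11.8 and 13.0 CPM in DMSO. The groups of BRCA2 and XRCC2 overlapped, and those of BRCA1 were close but separate. The change of BRCA1 was 0.18 ± 0.11 (edgeR adjusted p = 0.247, 95% interval -0.13 to 0.49), so its interval excludes a fall of the size seen in the other lines. Across the 9 members the intervals ran from -0.59 (the lower bound of RAD51C) to 0.61 (the upper bound of BLM).

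RAD51C and BLM came nearest to a call in HCC38, with changes of opposite sign. RAD51C had 25.9, 25.2 and 28.2 CPM under EZH2i+AKTi, against 30.5, 35.8 and 30.7 CPM in DMSO, and changed by -0.29 ± 0.11 (edgeR adjusted p = 0.0596). BLM had 20.4, 22.7 and 25.7 CPM under EZH2i+AKTi, against 18.4, 18.2 and 19.4 CPM in DMSO, and changed by 0.29 ± 0.11 (edgeR adjusted p = 0.0721). Their groups did not overlap, and these were the 2 members at an unadjusted p under 0.05 in edgeR. Without replicate C of EZH2i+AKTi, the library that stood apart, 1 member was called, RAD51C at -0.31 (adjusted p = 0.0127). In the joint fit both were called, RAD51C at -0.26 (adjusted p = 0.0102) and BLM at 0.32 (adjusted p = 0.0035).

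The remaining 6 in HCC38 had changes of 0.19 (BRCA2), 0.07 (BARD1), -0.02 (FANCD2), -0.11 (XRCC2), -0.12 (PALB2) and -0.18 (RAD54L), and their groups overlapped. FANCD2 had 44.9, 47.8 and 53.8 CPM under EZH2i+AKTi, against 49.9, 48.1 and 51.0 CPM in DMSO. RAD54L had 6.76, 6.32 and 6.15 CPM under EZH2i+AKTi, against 7.83, 6.63 and 7.24 CPM in DMSO. The treated and DMSO libraries of both genes interleaved. Without replicate C of EZH2i+AKTi the changes were 0.19 for BRCA1, 0.09 for BRCA2, -0.20 for PALB2, -0.05 for BARD1, -0.12 for XRCC2, -0.06 for FANCD2, 0.24 for BLM and -0.11 for RAD54L. None of these 8 was called, with edgeR adjusted p from 0.0525 (BLM) to 0.726 (BARD1), and BARD1 changed sign.

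Whether the lines differed in their response was tested directly in the joint fit of 20697 genes. The response of HCC38 was higher than that of HCC1395 for 9 of 9 members, where 17.4% of all genes were called so. The difference was largest for BRCA1, at 1.92 ± 0.17 (adjusted p = 8.45e-10), followed by XRCC2, at 1.87 ± 0.14 (adjusted p = 1.67e-11), and smallest for PALB2, at 0.40 ± 0.13 (adjusted p = 0.02). Without replicate C of HCC38 EZH2i+AKTi the PALB2 difference was 0.29 and not called (adjusted p = 0.0719), and the other 8 were called. The PALB2 call was also lost without HCC1395 DMSO replicate A (adjusted p = 0.0615) or replicate B (adjusted p = 0.0515). Against HCC1937, the response of HCC38 was also higher for 9 of 9, where 17.7% of all genes were called so, with differences from 0.47 ± 0.11 (RAD51C) to 1.35 ± 0.12 (BLM), and all 9 were called without that library too, from 0.42 (PALB2) to 1.29 (BRCA1). Between HCC1937 and HCC1395, 3 of 9 differed, with the fall smaller in HCC1937, where 11.3% of all genes were called in that direction. These were BRCA1 (0.61 ± 0.17, adjusted p = 0.00715), XRCC2 (0.54 ± 0.13, adjusted p = 0.00281) and FANCD2 (0.37 ± 0.11, adjusted p = 0.0101). The 3 contrasts share libraries.

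In DMSO the lines held the members at different levels, most of all BRCA1. Per kilobase of exon, in CPM scaled over all 24 libraries, BRCA1 stood at 7.66, 8.58 and 8.25 in HCC1937, at 1.32, 1.11 and 1.22 in HCC38, and at 1.05, 1.03 and 1.04 in HCC1395. HCC1937 was far above the other lines, and the other lines were close to each other. BRCA1 was 7.84-fold higher in HCC1937 than in HCC1395 (log2 2.97 ± 0.11, adjusted p = 6.61e-20) and 6.70-fold higher in HCC1937 than in HCC38 (log2 2.74 ± 0.11, adjusted p = 5.03e-19). Between HCC38 and HCC1395 it differed by 0.23 ± 0.12 on the log2 scale and was not called (edgeR adjusted p = 0.0821), though it was without replicate B of HCC38 DMSO (adjusted p = 0.0486) and without replicate C of HCC1395 AKTi (adjusted p = 0.0427). The ratio of BRCA1 to BARD1 per kilobase was 1.80 ± 0.11 in HCC1937, 0.156 ± 0.014 in HCC38 and 0.161 ± 0.0068 in HCC1395 (SD, n = 3 each). Under EZH2i+AKTi the ratio was 2.00 ± 0.22 in HCC1937 and 0.170 ± 0.024 in HCC38.

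NBR2, the RNA gene that runs the other way, with 192 bases between its start and that of BRCA1, was looked at after the BRCA1 levels were seen. Its joint CPM was 5.75, 7.00 and 6.95 in HCC1937, 0.827, 1.20 and 0.762 in HCC38, and 2.26, 2.19 and 2.22 in HCC1395, all in DMSO. NBR2 was also highest in HCC1937, by 1.56 ± 0.14 on the log2 scale over HCC1395 (adjusted p = 4.53e-11), but it was lower in HCC38 than in HCC1395 by 1.26 (SE 0.18, adjusted p = 2.55e-07), where BRCA1 was not. Under EZH2i+AKTi against DMSO, NBR2 changed by 0.53 ± 0.14 in HCC1395 (adjusted p = 0.00303) and by 0.41 ± 0.11 in HCC1937 (adjusted p = 0.00348), while BRCA1 fell in both. The exons of the 2 genes share 0 bases in GENCODE release 29, although the annotated BRCA1 gene (chr17:43044295-43170245, minus strand, GRCh38) extends across the start of NBR2.

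**Figure D3:**
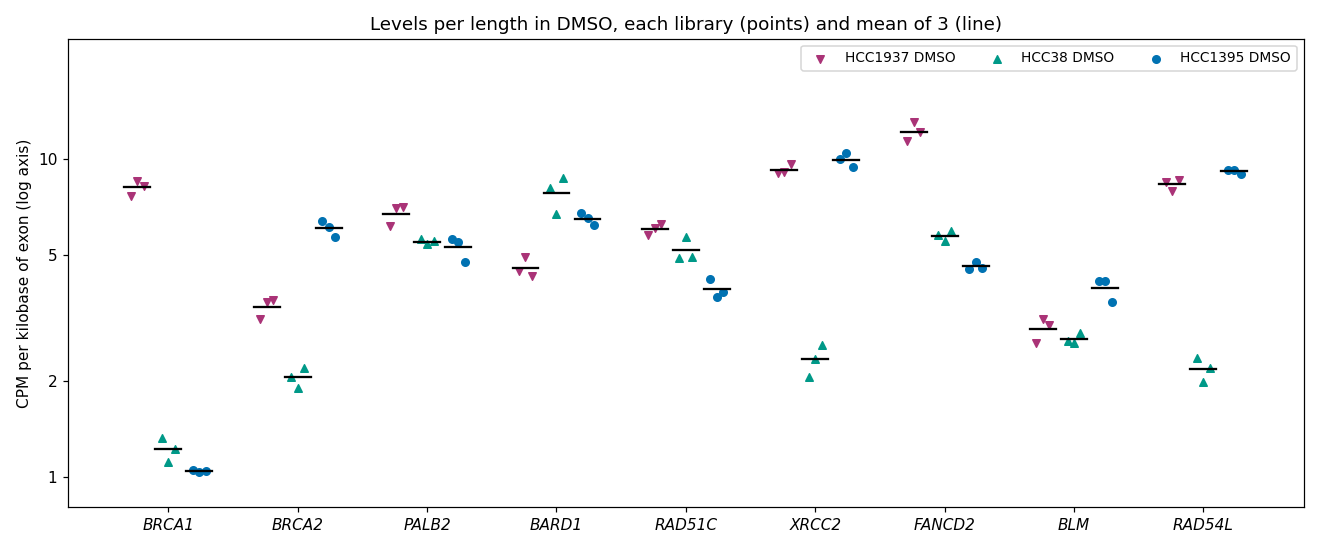
CPM per kilobase of merged exon in DMSO (vertical log axis, scaled over all 24 libraries) for the 9 genes (horizontal axis) in the 3 lines, with points for libraries and a line for the mean of 3. BRCA1 in HCC1937 lies far above both other lines, and XRCC2 and RAD54L in HCC38 lie far below both.

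The other members differed between lines in either direction. HCC1937 against HCC1395 in DMSO had 4 of 9 higher, with a background of 37.3%, and 3 of 9 lower, with a background of 35.7%. HCC38 against HCC1395 had 3 of 9 higher, with a background of 38.2%, and 4 of 9 lower, with a background of 36.5%. HCC1937 against HCC38 had 7 of 9 higher, with a background of 36.2%, and 1 of 9 lower, BARD1, with a background of 35.6%. The BARD1 call, higher in HCC38 than in HCC1395, was lost without HCC38 DMSO replicate A (adjusted p = 0.0715) or C (adjusted p = 0.154), without HCC1395 DMSO replicate B (adjusted p = 0.0505) or C (adjusted p = 0.0857), and with a replicate block (adjusted p = 0.129). The RAD51C call, higher in HCC1937 than in HCC38, was lost without HCC38 DMSO replicate A (adjusted p = 0.0655) or C (adjusted p = 0.0575). Lines differ in so many genes that the first 2 of these shares are near the background.

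Per kilobase in DMSO, XRCC2 averaged 9.27 ± 0.33 in HCC1937, 2.34 ± 0.27 in HCC38 and 9.99 ± 0.50 in HCC1395 (SD, n = 3 each). RAD54L averaged 8.36 ± 0.37 in HCC1937, 2.19 ± 0.19 in HCC38 and 9.18 ± 0.16 in HCC1395. Both were lower in HCC38 than in HCC1395, by 2.09 (SE 0.10) and 2.07 (SE 0.08) on the log2 scale, with edgeR adjusted p of 9.12e-18 and 1.37e-19 in that order. HCC1937 and HCC1395 did not differ in either beyond the test (edgeR adjusted p = 0.292 and 0.102 in that order). RAD54L was called lower in HCC1937 with a stricter filter (adjusted p = 0.0396), with DESeq2 (adjusted p = 0.0359) and without HCC1395 EZH2i replicate C (adjusted p = 0.0457). LRRC41, which may share reads with RAD54L, was also lower than in HCC1395. Its log2 difference was -1.10 ± 0.07 in HCC38 and -0.71 ± 0.07 in HCC1937 (edgeR adjusted p = 1.38e-14 and 1.9e-10 in that order). The part of shared reads was not tested. FANCD2 averaged 12.2 ± 0.8 in HCC1937, 5.75 ± 0.20 in HCC38 and 4.61 ± 0.14 in HCC1395, and BRCA2 3.43 ± 0.25, 2.06 ± 0.15 and 6.08 ± 0.34 in the same lines. BRCA2 and BLM were the members called lower in both HCC1937 and HCC38 than in HCC1395. BARD1 was lower in HCC1937 than in HCC38 (log2 -0.79 ± 0.11, adjusted p = 2.03e-07) and than in HCC1395 (log2 -0.51 ± 0.11, adjusted p = 1.22e-04). PALB2 varied least, with 6.75 ± 0.51 in HCC1937, 5.51 ± 0.09 in HCC38 and 5.29 ± 0.46 in HCC1395.

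Other genes of recombination and repair are given from lists, with members left out. Of 11 tested genes of strand exchange and its helpers, 5 fell and 3 rose under AKTi in HCC1395, with a median of -0.25. XRCC3, a further helper of strand exchange, changed by -1.33 ± 0.08 to 7.19 CPM under AKTi, against 18.1 CPM in DMSO (adjusted p = 4.63e-11). RAD51AP1, also of strand exchange, changed by -1.11 ± 0.06 (adjusted p = 8.58e-12), and FIGNL1, an ATPase, by -1.10 ± 0.07 (adjusted p = 4.37e-11). RAD52, an annealing protein, rose by 0.33 (SE 0.09, adjusted p = 0.00393), and RAD51B changed by 0.11 ± 0.09 and was not called (adjusted p = 0.333). Over all genes under AKTi, 27.1% were called higher and 22.6% lower.

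The neighbouring steps of repair also had more genes called lower than higher under AKTi in HCC1395. Of 10 genes of end resection 7 fell and 0 rose (median -0.49), with the nuclease EXO1 at -1.79 ± 0.07 (adjusted p = 3.37e-14) and DNA2 at -1.13 ± 0.11 (adjusted p = 5.26e-08). Of 14 genes of the Fanconi anaemia pathway 9 fell and 2 rose (median -0.46), with FANCI, the partner of FANCD2, at -1.16 ± 0.07 (adjusted p = 2.17e-11) and FANCA at -1.18 ± 0.08 (adjusted p = 1.35e-10). Of 8 genes of dissolution and resolution 6 fell and 1 rose (median -0.56), with RMI1, the partner of BLM, at -1.04 ± 0.06 (adjusted p = 2.98e-11). Of 9 genes of BRCA1 complexes 4 fell and 1 rose (median -0.10). BRIP1, a helicase that binds BRCA1, changed by -1.22 ± 0.10 (adjusted p = 3.08e-09), whereas ABRAXAS1, the scaffold of another BRCA1 complex, rose by 0.87 (SE 0.08, adjusted p = 7.42e-09). Of 10 damage checkpoint genes 6 fell and 1 rose (median -0.41), with CLSPN at -2.02 ± 0.09 (adjusted p = 6.41e-13), to 7.23 CPM under AKTi, against 29.3 CPM in DMSO.

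Repair outside recombination gave a one-sided list and a mixed one in HCC1395. Of 13 genes of non-homologous end joining 8 fell and 0 rose under AKTi (median -0.28), and of 22 genes of mismatch and excision repair 6 fell and 5 rose (median 0.03). The end joining protein XRCC6 changed by -0.52 ± 0.05 (adjusted p = 6.49e-09), and the mismatch protein MSH6 by -0.97 ± 0.06 (adjusted p = 5.9e-11). Under EZH2i, 0 of 11 strand exchange genes were lower and 1 higher, 3 of 10 resection genes lower and 0 higher, and 2 of 14 Fanconi genes lower and 1 higher. Of the end joining genes 5 of 13 were lower and 1 higher, and of the mismatch and excision genes 9 of 22 were lower and 2 higher. FANCM, an anchor of the Fanconi core complex, changed by -0.48 ± 0.12 under EZH2i (adjusted p = 0.00291) and MUS81, a nuclease of joined molecules, by -0.31 ± 0.06 (adjusted p = 1.84e-04). Over all genes under EZH2i, 18.8% were called higher and 14.9% lower.

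Under EZH2i+AKTi the resection, Fanconi and checkpoint lists had more genes called lower in HCC1395 and HCC1937 than in HCC38. The lists were not tested as sets, but the difference between lines was tested for each gene in the joint fit. The response was higher in HCC38 than in HCC1395 for 9 of 10 resection, 7 of 14 Fanconi and 6 of 10 checkpoint genes. It was higher in HCC38 than in HCC1937 for 8 of 10, 8 of 14 and 7 of 10. In each list 0 genes were lower, and 17.4% and 17.7% of all genes were called higher in these 2 contrasts. In HCC1395, 8 of 10 resection genes, 10 of 14 Fanconi genes and 7 of 10 checkpoint genes fell, with 0, 2 and 0 higher and medians of -0.63, -0.41 and -0.55. In HCC1937, 7 of 10 resection genes, 11 of 14 Fanconi genes and 8 of 10 checkpoint genes fell, with 0, 1 and 0 higher and medians of -0.55, -0.56 and -0.59. In HCC38, 0 of 10 resection genes, 0 of 14 Fanconi genes and 2 of 10 checkpoint genes fell, with 0, 0 and 1 higher and medians of -0.06, -0.10 and -0.06. Without replicate C of EZH2i+AKTi in HCC38, 3 resection genes, 0 Fanconi genes and 3 checkpoint genes fell, with 0, 0 and 2 higher. Of 9 genes of BRCA1 complexes, 3 fell in HCC1395, 2 in HCC38 (4 without replicate C) and 3 in HCC1937, with medians of -0.10, -0.18 and -0.10. Of 11 strand exchange genes, 5 fell in HCC1395, 2 in HCC38 and 5 in HCC1937, with medians of -0.18, -0.12 and -0.10. EXO1 changed by -1.93 ± 0.07 in HCC1395, by -0.23 ± 0.11 in HCC38 and by -1.42 ± 0.08 in HCC1937, with edgeR adjusted p of 4.73e-15, 0.132 and 6.22e-10 in that order. The share of all genes called lower under EZH2i+AKTi was 27.4% in HCC1395, 14.5% in HCC38 and 28.8% in HCC1937. RMI2, of the BLM complex, rose in HCC38 (0.58 ± 0.10, adjusted p = 0.00231), and XRCC3 fell there (-0.66 ± 0.16, adjusted p = 0.00927). Mismatch and excision repair, the longest list, had 10 of 22 lower and 0 higher in HCC38 (median -0.29). It had 12 lower and 4 higher in HCC1395 (median -0.22), and 15 lower and 3 higher in HCC1937 (median -0.29). Of the end joining genes, 9 of 13 fell and 1 rose in HCC1395. In HCC38 3 of 13 fell and 0 rose, and in HCC1937 9 of 12 fell and 0 rose.

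**Figure D4:**
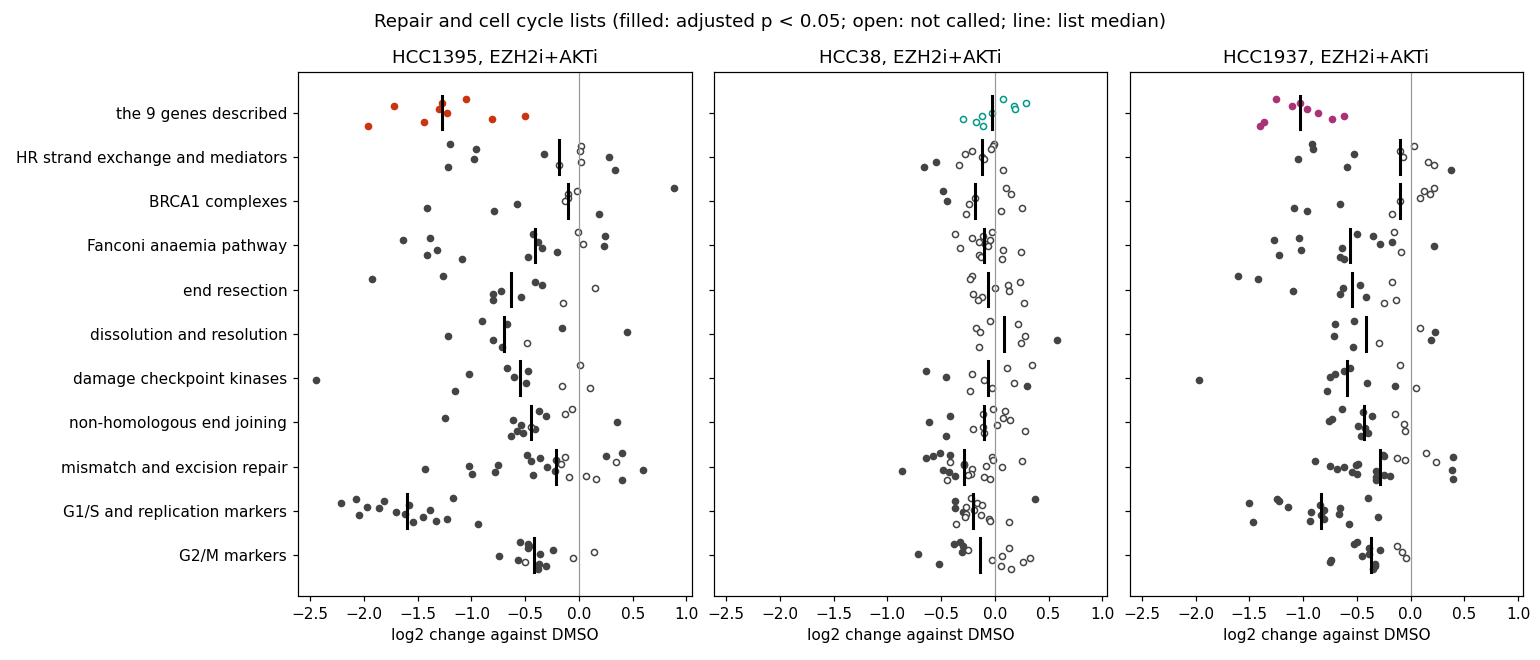
Log2 change under EZH2i+AKTi against DMSO (horizontal axis) of each tested gene (points, filled at adjusted p under 0.05) in the 9 described genes and 10 lists (rows), with a line for the median, in HCC1395, HCC38 and HCC1937. The 9 genes and the G1/S markers lie below 0 in HCC1395 and HCC1937, and around 0 in HCC38.

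Markers of G1/S fell in the comparisons with DMSO where all 9 members fell. Of 16 G1/S and replication markers, 16 fell under AKTi in HCC1395 (median -1.51), 16 under EZH2i+AKTi in HCC1395 (median -1.60) and 16 under EZH2i+AKTi in HCC1937 (median -0.84). In HCC38, 3 of these 16 fell and 1 rose under EZH2i+AKTi (median -0.20), and under EZH2i in HCC1395 4 fell and 1 rose (median -0.07). Their summed CPM was 2473 to 2517 under EZH2i, 922 to 949 under AKTi, 892 to 912 under EZH2i+AKTi and 2639 to 2661 in DMSO in HCC1395. It was 2032 to 2109 under EZH2i+AKTi, against 2313 to 2414 in DMSO, in HCC38, and 1785 to 1819 under EZH2i+AKTi, against 3168 to 3256 in DMSO, in HCC1937. CDC6, a licensing factor of replication, changed by -1.99 ± 0.06 under AKTi (adjusted p = 6.15e-16). Of 14 G2/M markers, 11 fell under AKTi (median -0.58), 11 under EZH2i+AKTi in HCC1395 (median -0.42), 11 in HCC1937 (median -0.36) and 6 in HCC38 (median -0.13). Under EZH2i 0 G2/M markers fell and 1 rose (median -0.01). Under EZH2i+AKTi against AKTi alone, where 5 members fell, 0 G2/M markers fell and 7 rose (median 0.15), and 4 G1/S markers fell and 1 rose (median -0.08). Without replicate C of EZH2i+AKTi in HCC38, 5 G1/S markers fell and 1 rose, and 7 G2/M markers fell and 2 rose. The part of the cell cycle in the changes of the members was not tested.

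Across the 24 libraries, with log2 CPM centred within each line, the members moved together. Pearson's r over the 36 pairs of members ran from 0.733 to 0.988, with a median of 0.929, over libraries that share treatments, lines and depth. The r over pairs of other genes was not computed, so whether such values are particular to the members is not known. Among 10899 protein-coding genes with at least 5 CPM on average, XRCC2 was most like NCAPG2 (r = 0.991) and CDC6 (r = 0.989), and FANCD2 most like WDHD1 (r = 0.992), CDC6 (r = 0.991) and FANCI (r = 0.99). BLM was most like BRIP1 (r = 0.982), RAD54L most like WDR76 (r = 0.988) and BARD1 most like ATAD2 (r = 0.978). BRCA1 was most like ADAT1 (r = 0.97), followed by BRCA2 (r = 0.968), the 1 case of another member among a gene's 3 nearest. BRCA2 was most like NEMP1 (r = 0.986), RAD51C most like EXOSC8 (r = 0.979) and PALB2 most like MPHOSPH9 (r = 0.967).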

How the data were processed

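RNA counts of 24 libraries of HCC1395, HCC38 and HCC1937 cells were used. The authors deposited raw counts for 58735 gene entries, keyed by symbol, in a file per library. Per the submitters' processing notes, fastp, HISAT2 2.0.5 and DESeq2 were used with build hg38. Which counter, annotation release and strand mode they chose is not given in the sources used here. By the kit's wording, libraries may or may not keep strand. Deposited normalised tables were not used here.

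Counts were tested with edgeR 4.0.16 (limma 3.58.1, R 4.3.3): filterByExpr (minimum count 10), TMM scaling, robust dispersions, two-sided quasi-likelihood tests, Benjamini-Hochberg adjustment over all genes and calls under 0.05. Each line had its own fit, and differences between lines came from a joint fit. The HCC1395 fit tested 18074 genes with 8 residual degrees of freedom, the HCC38 fit 17100 with 4, the HCC1937 fit 17692 with 4 and the joint fit 20697 with 16. A joint CPM differs slightly from a CPM scaled within a line. Lengths are merged exons of GENCODE release 29, whose build is GRCh38. The workflow was tested on simulated data. Same-letter replicates did not deviate together (1 of 18, 1 of 3 and 0 of 3 pairs with r over 0.1), so no block was used. Alternatives were RLE scaling, no and stricter filters (1 CPM in 3 libraries), DESeq2 1.42.0, a replicate block, joint and pairwise fits and each library left out.

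The members, lists and tests were chosen with earlier results of these data known. List genes named are those with the smallest p per list and comparison. Genes named beyond these, such as RAD51B, RAD52, NBR2 and LRRC41, were chosen after their values were seen.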

Additional observations from a re-analysis of the deposited data

Results flagged for a closer look

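The response to EZH2i+AKTi against DMSO differed between lines for the genes below, by a contrast of the 2 responses in the joint edgeR fit, with adjusted p under 0.05. A positive value means that the response of the first line was the higher one. For HCC38 less HCC1395 the log2 differences were 1.92 for BRCA1, 1.52 for BRCA2, 0.40 for PALB2, 1.15 for BARD1, 0.54 for RAD51C, 1.87 for XRCC2, 1.23 for FANCD2, 1.59 for BLM and 1.29 for RAD54L. For HCC38 less HCC1937 they were 1.31 for BRCA1, 1.19 for BRCA2, 0.53 for PALB2, 1.35 for BARD1, 0.47 for RAD51C, 1.33 for XRCC2, 0.86 for FANCD2, 1.35 for BLM and 1.22 for RAD54L. For HCC1937 less HCC1395 they were 0.61 for BRCA1, 0.54 for XRCC2 and 0.37 for FANCD2. These contrasts share libraries and are not independent of each other.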

How the results depend on the processing

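All 9 members were called lower under every alternative for AKTi and EZH2i+AKTi against DMSO and EZH2i+AKTi against EZH2i in HCC1395, and for EZH2i+AKTi in HCC1937. The replicate block left these at 9 and moved 2 single calls, PALB2 against AKTi alone (adjusted p = 0.062) and BARD1 in HCC38 against HCC1395 in DMSO (adjusted p = 0.129). Counts of members called moved by over 1.5 times in 4 comparisons, and by 1 or 2 members in 5 contrasts between lines, where they ran from 3 to 4 (HCC1937 less HCC1395 response), 8 to 9 (HCC38 less HCC1395 response), 7 to 8 (HCC1937 against HCC1395 and against HCC38 in DMSO) and 6 to 8 (HCC38 against HCC1395 in DMSO). For EZH2i against DMSO, 3 became 5 with the 2 groups alone, and 2 to 5 with each library left out. For EZH2i+AKTi against AKTi, 6 became 3 in the joint fit and 3 with the 2 groups alone, and 3 to 6 with each library left out. For EZH2i+AKTi in HCC38, 0 became 1 with the stricter filter and 2 in the joint fit, and 0 to 1 with each library left out. For the interaction it was 0 to 1 with each library left out, while calls over all genes ran from 127 to 1022. Their cause was not tested. Changes of sign occurred only in values that were not called. The interaction of BRCA2 became 0.0349 with RLE scaling, 0.0245 with no filter, 0.04 with DESeq2 and 0.0021 in the joint fit. With the stricter filter BARD1 under EZH2i became 0.0113, RAD54L against AKTi alone 0.0146 and FANCD2 in HCC38 0.0135. FANCD2 in HCC38 became 0.0068 in the joint fit, and RAD54L against AKTi alone 0.0158 with the 2 groups alone. With each library left out, BARD1 ran from -0.0571 to 0.0221 under EZH2i and from -0.049 to 0.17 in HCC38, and FANCD2 from -0.0625 to 0.0491 in HCC38. RAD54L against AKTi alone ran from -0.057 to 0.0633, and PALB2 in HCC38 against HCC1395 in DMSO from -0.0152 to 0.0997. Interactions ran from -0.32 to 0.0176 for BRCA1, from -0.16 to 0.17 for BRCA2 and from -0.11 to 0.0227 for BLM. The least abundant member per length, BRCA1 in HCC1395, rests on 113 to 358 counts a library. Its changes had the largest standard errors of the 9 members in that line, and the part of low counts in this was not tested.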
